A study of Mus musculus with 8 samples.

Results

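The genes described here are 10 genes of the TREM2 and lipid-handling programme of macrophages, *Trem2*, *Gpnmb*, *Apoe*, *Lpl*, *Cd36*, *Cd9*, *Fabp5*, *Lgals3*, *Cd68* and *Abca1*, taken by name from the 57010 genes of the count matrix. They were followed in single cells of mouse kidney that had been sorted to enrich live leukocytes. Each of 7 conditions was 1 pool of the kidneys of 3 C57BL/6 mice. The control kidneys were untouched, the vehicle pools came from kidneys with ischemia-reperfusion injury (IRI) at days 1, 7 or 14, in which blood flow to the kidney is stopped and restored, and the entospletinib pools came from mice given IRI and this inhibitor of the kinase SYK, at the same days. Because each condition was 1 pool, no test could be made between single conditions. Cells of every condition were split over 8 sublibraries, and the SD given with a level is over these 8. It holds technical error and which cells fell in each sublibrary, and it does not measure the spread between mice.

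TREM2 is a receptor of macrophages that binds lipids and apolipoproteins and signals through the adaptor TYROBP to SYK. Macrophages that take up much lipid, as in fat tissue, plaques and degenerating brain, are known for a shared set of genes that includes *Trem2*, *Gpnmb*, *Cd9*, *Lpl* and *Fabp5*. In the kidney, macrophages clear dead tubular cells after injury and so meet membrane lipid and cholesterol. In the GENCODE vM21 annotation (GRCm38) all 10 are protein-coding genes, *Trem2* at chr17:48346401-48354147, *Gpnmb* at chr6:49036546-49070929, *Abca1* at chr4:53030787-53159895 and *Cd9* at chr6:125460266-125494791.

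After filtering, 79389 of 120281 barcodes were kept, with a median of 2343 counts per cell. Of these, 24298 cells in 6 clusters were macrophage-like by *C1qa*, *C1qb*, *C1qc*, *Adgre1*, *Cx3cr1* and *Mertk*, and the member genes took no part in the clustering. The median depth of macrophage-like cells ran from 862 counts in the entospletinib pool of day 14 to 3837 in the vehicle pool of day 1. The leading macrophage-like clusters also differed between conditions. Cluster 0 held 67.6% of the control's macrophage-like cells, cluster 8 held 75.2% in the vehicle and 60.3% in the entospletinib pool of day 1, and cluster 6, with a median of 1074.5 counts per cell, held 48.3% in the entospletinib pool of day 14. Cluster 10 held 3.71% in the control. It held 9.77%, 29.0% and 31.5% in the vehicle pools of days 1, 7 and 14, against 4.88%, 9.82% and 8.44% in the entospletinib pools. This cluster held 617 of the 782 *Gpnmb* counts and 147 of the 237 *Fabp5* counts of macrophage-like cells, so each ratio over the whole class carries both the mix of clusters and the level within them. When every cell was thinned to 500 counts, 50 of the 60 member ratios in macrophage-like cells described below moved by less than their SD, 10 moved by more and 3, none of them called, took the other sign. With each cell weighing the same, 59 of the 60 moved by less than their SD and none changed sign.

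Promoter windows are shown of 3 genes because *Gpnmb* and *Abca1* gave the lowest adjusted p-values of the treatment test below, and *Cd68* held the most motif matches. They are RefSeq sequences on GRCm38.p6, from 250 bases before to 50 after a transcription start. For *Gpnmb* and *Cd68* this start is not the gene start of the GENCODE annotation. Capitals mark matches to CACGTG (E-box) or to TGAGTCA (AP-1) on either strand.
Gpnmb, chr6:49036268-49036567, plus strand: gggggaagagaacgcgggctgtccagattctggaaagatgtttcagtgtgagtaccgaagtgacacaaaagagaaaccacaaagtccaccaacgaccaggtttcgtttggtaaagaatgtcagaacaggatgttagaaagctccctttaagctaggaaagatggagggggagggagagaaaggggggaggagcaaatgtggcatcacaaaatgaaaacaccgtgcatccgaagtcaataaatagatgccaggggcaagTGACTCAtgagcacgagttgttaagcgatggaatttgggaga
Abca1, chr4:53159846-53160145, minus strand: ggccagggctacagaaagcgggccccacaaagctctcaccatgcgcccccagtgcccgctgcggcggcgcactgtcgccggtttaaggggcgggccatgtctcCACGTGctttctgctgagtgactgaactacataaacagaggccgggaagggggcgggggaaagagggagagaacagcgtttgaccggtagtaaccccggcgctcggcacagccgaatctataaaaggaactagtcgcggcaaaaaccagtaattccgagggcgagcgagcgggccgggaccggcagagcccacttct
Cd68, chr11:69666121-69666420, minus strand: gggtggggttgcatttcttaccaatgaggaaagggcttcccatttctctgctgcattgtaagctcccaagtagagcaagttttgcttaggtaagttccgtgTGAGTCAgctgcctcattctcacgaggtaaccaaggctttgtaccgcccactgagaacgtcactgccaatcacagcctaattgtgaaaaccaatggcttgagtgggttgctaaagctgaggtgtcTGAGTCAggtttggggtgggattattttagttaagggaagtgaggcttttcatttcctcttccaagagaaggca

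In the table of promoters, 8 of the 10 genes had an entry, *Apoe* with 3, and *Lpl* and *Fabp5* had none. CACGTG was found in the window of *Abca1*, and in 7.15% of 32851 promoter windows in all. TGAGTCA was found in those of *Gpnmb* and *Cd68*, and in 5.20% of all windows. GAGGAAGT (PU.1, 3.20% of all windows), the direct repeat DR1 (0.0396%) and DR4 (0.0152%) matched no member window. The DR1 and DR4 searches took exact strings only, with no change allowed in either copy of the repeat. They matched 13 and 5 of the 32851 windows. For that reason they cannot tell whether a member window, that of *Abca1* included, holds a repeat with changed letters. A match is a string of letters, and no binding was measured.

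Receptors and surface proteins are described first. *Trem2*, the lipid receptor itself, was scarce, with 1193 counts in all macrophage-like cells. Its level was 5.8 ± 1.0 CPM (the gene's share of all counts of that class and condition, on the usual common scale) in the control. It was 24.2 ± 4.9, 19.4 ± 4.0 and 21.5 ± 2.5 CPM in the vehicle pools of days 1, 7 and 14. The entospletinib pools had 16.7 ± 4.2, 18.6 ± 4.4 and 11.8 ± 6.3 CPM. The control sublibraries, at most 7.0 CPM, lay below every sublibrary of the vehicle pools. Where a lack of overlap is given, here and for *Cd36*, *Cd9* and *Abca1* below, it describes single pools. The share of all genes that also lacked overlap is not given, so it does not set these members apart.

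*Cd36*, a scavenger receptor for oxidised lipoproteins and fatty acids, stood at 380 ± 35 CPM in the control. The vehicle pool of day 1 had 1387 ± 95 CPM, and those of days 7 and 14 had 170 ± 27 and 159 ± 20 CPM. With entospletinib the levels were 644 ± 66, 286 ± 38 and 193 ± 43 CPM. The vehicle pools were thus above the control at day 1 and below it later, and the 8 sublibraries of day 1 did not overlap between treatments.

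*Cd9*, a tetraspanin of the cell surface, had 66.4 ± 12.5 CPM in the control. Its vehicle levels were 191 ± 19, 66.1 ± 9.6 and 79.3 ± 8.2 CPM at days 1, 7 and 14. Its entospletinib levels were 128 ± 18, 68.2 ± 15.4 and 41.3 ± 11.1 CPM. The treatments did not overlap at days 1 and 14 and overlapped at day 7.

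*Gpnmb*, a transmembrane glycoprotein of lysosome-rich macrophages, had 0.7 ± 1.5 CPM in the control. The vehicle pools had 4.2 ± 8.9, 37.7 ± 53.7 and 13.7 ± 5.9 CPM, and the entospletinib pools 0.2 ± 0.4, 16.7 ± 38.9 and 3.9 ± 7.5 CPM. The SD exceeded the level in every condition other than the vehicle pool of day 14, and few cells held the counts. In the entospletinib pool of day 7, 1 cell held 107 of 124 counts, and in the vehicle pool of day 7, 1 cell held 141 of 295. In the vehicle pool of day 14, by contrast, 104 cells shared 300 counts.

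**Figure D1:**
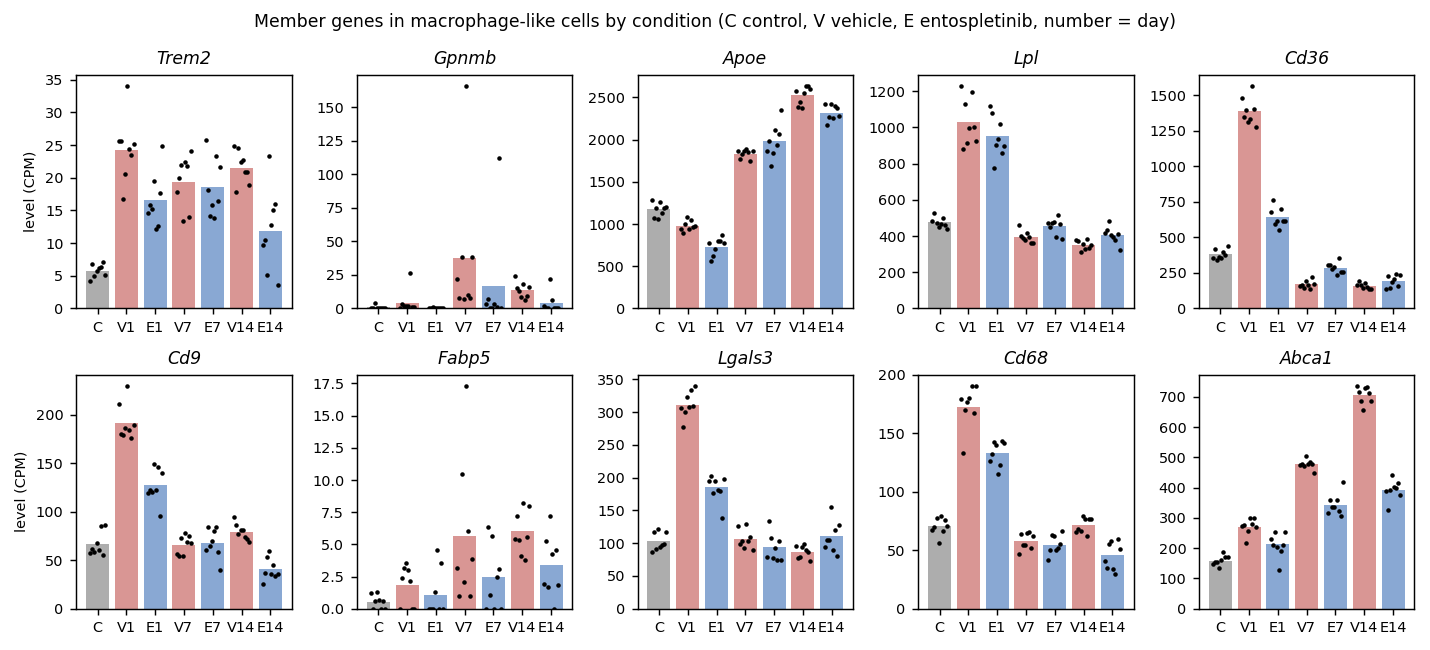
Level in CPM of each member gene in macrophage-like cells, with bars for the pooled level (grey control, red vehicle, blue entospletinib) and points for the 8 sublibraries; each panel has its own axis. *Cd36*, *Cd9*, *Lgals3* and *Cd68* stand highest in the vehicle pool of day 1, and *Apoe* and *Abca1* in that of day 14.

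Among secreted and cytosolic proteins, *Apoe*, the apolipoprotein that carries lipid out of macrophages, had 1175 ± 81 CPM in the control. Vehicle levels were 980 ± 59, 1835 ± 49 and 2524 ± 109 CPM at days 1, 7 and 14, and entospletinib levels 731 ± 103, 1978 ± 200 and 2318 ± 92 CPM. *Lpl*, the lipase that frees fatty acids from triglyceride, had 475 ± 28 CPM in the control. Vehicle pools had 1033 ± 135, 395 ± 32 and 352 ± 26 CPM, and entospletinib pools 951 ± 116, 455 ± 44 and 407 ± 46 CPM. Both treatments stood above the control at day 1 for *Lpl*, and above it at days 7 and 14 for *Apoe*.

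*Lgals3*, a galactose-binding lectin, was at 103 ± 14 CPM in control kidneys. Vehicle pools had 311 ± 20, 106 ± 15 and 86.2 ± 9.6 CPM. Entospletinib pools had 185 ± 21, 94.7 ± 21.1 and 111 ± 24 CPM. *Fabp5*, a fatty acid carrier of the cytosol, had only 237 counts in all macrophage-like cells. After every cell was thinned to 500 counts, 0.155% of macrophage-like and 0.152% of T cell-like cells held a *Fabp5* count, at median depths of 2346.5 and 2015.5 counts before thinning. The level was 3.5 ± 1.1 CPM in macrophage-like and 4.2 ± 1.7 CPM in T cell-like cells, and 3.4 and 2.4 CPM once called doublets were removed. It was lower in NK cell-like (0.46 CPM, exact Poisson interval 0.012 to 2.6), cDC1-like (0.83, 0.30 to 1.8) and proximal tubule-like cells (1.1, 0.52 to 2.0), intervals that cover counting error only. Other classes were higher, among them monocyte-like (16.1 ± 5.2 CPM), endothelial cell-like (15.1 ± 3.1), neutrophil-like (7.4 ± 1.4) and cDC2-like cells (4.9 ± 0.9). Cluster 10 held 147 of the 237 macrophage-like counts, at 9.9 ± 3.9 CPM.

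*Cd68*, a lysosomal membrane protein, had 70.5 ± 7.4 CPM in the control. Vehicle levels were 172 ± 18, 57.9 ± 7.0 and 71.7 ± 6.4 CPM and entospletinib levels 133 ± 11, 54.7 ± 8.2 and 45.6 ± 11.7 CPM. *Abca1*, the pump that loads cholesterol onto apolipoproteins, had 159 ± 16 CPM in the control. Vehicle pools had 270 ± 26, 477 ± 15 and 706 ± 28 CPM, and entospletinib pools 212 ± 40, 343 ± 35 and 391 ± 34 CPM. *Abca1* sublibraries of the treatments did not overlap at days 7 and 14, again without the share of all genes beside it.

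Ratios are given on the log2 scale relative to the median of the 3400 genes whose mean reached 50 CPM, with 0.5 counts added, and a gene is called when it lies more than 2-fold from that median with all 8 sublibraries in its direction. The median itself ran from -0.29 to 0.33. Of the 10 genes, 7 passed 50 CPM, and *Trem2*, *Gpnmb* and *Fabp5* did not. Every share of called genes given beside these ratios is of the 3400 genes and so leaves those 3 members out. For vehicle over control at day 1, 5 members were called higher, *Trem2* (1.93 ± 0.33), *Cd36* (1.73 ± 0.18), *Lgals3* (1.46 ± 0.20), *Cd9* (1.39 ± 0.30) and *Cd68* (1.16 ± 0.24). Of these, 4 were among the 3400 genes, of which 6.38% were called higher. Within cluster 0 alone the ratio of *Cd9* was -0.030, and within cluster 8 it was 0.28. Those of *Trem2*, *Cd36*, *Lgals3* and *Cd68* stayed above 0 within each of clusters 0, 6, 8, 10 and 12.

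At day 7, 4 members were called higher over the control, *Gpnmb* (5.92 ± 1.38), *Fabp5* (3.53 ± 1.54), *Trem2* (2.04 ± 0.44) and *Abca1* (1.87 ± 0.17). Only *Abca1* was among the 3400 genes, of which 3.15% were called higher and 1.26%, with no member, lower. At day 14, 5 were called higher, *Gpnmb* (4.26 ± 1.31), *Fabp5* (3.42 ± 1.17), *Abca1* (2.23 ± 0.12), *Trem2* (1.98 ± 0.37) and *Apoe* (1.19 ± 0.08). *Abca1* and *Apoe* were among the 3400 genes, of which 3.5% were called higher. *Cd36* was called lower (-1.17 ± 0.25), beside 1.71% of the 3400. These 3 comparisons share the control pool, in which *Gpnmb* and *Fabp5* had 9 and 7 counts. Within each of clusters 0, 6, 8, 10 and 12 the ratios of the called members kept their sign at days 7 and 14, with few counts behind those of *Gpnmb* and *Fabp5*. At day 14 they ran from 2.16 to 3.39 for *Gpnmb*, 0.73 to 2.72 for *Fabp5*, 1.55 to 2.39 for *Abca1* and 1.00 to 3.05 for *Trem2*. Within cluster 10 at day 7 *Abca1* stood at 1.63, and *Gpnmb* at 4.21 over a control with 2 counts.

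For entospletinib over vehicle, no member was called lower at day 1 (0.294% of genes) or day 7 (1.59% of genes), and *Cd9* was called lower at day 14 (-1.02 ± 0.45), beside 1.35% of genes. Within cluster 0 that ratio of *Cd9* was -0.083 and within cluster 10 -0.39. Below the 2-fold limit, *Cd36* stood at -0.99 ± 0.14 at day 1, lower in 8 of 8 sublibraries, and at 0.42 ± 0.35 and 0.20 ± 0.37 later. *Abca1* stood at -0.23 ± 0.42, -0.81 ± 0.17 and -0.93 ± 0.16 at days 1, 7 and 14. Its ratio was below 0 at every day within each of clusters 0, 6, 8, 10 and 12. The median of the 10 genes was -0.44, -0.40 and -0.80 at days 1, 7 and 14. Over the 7 members that reached 50 CPM it was -0.30, -0.29 and -0.20, and within cluster 10 that of the 10 genes was 0.12 at day 7 and -0.0277 at day 14.

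**Figure D2:**
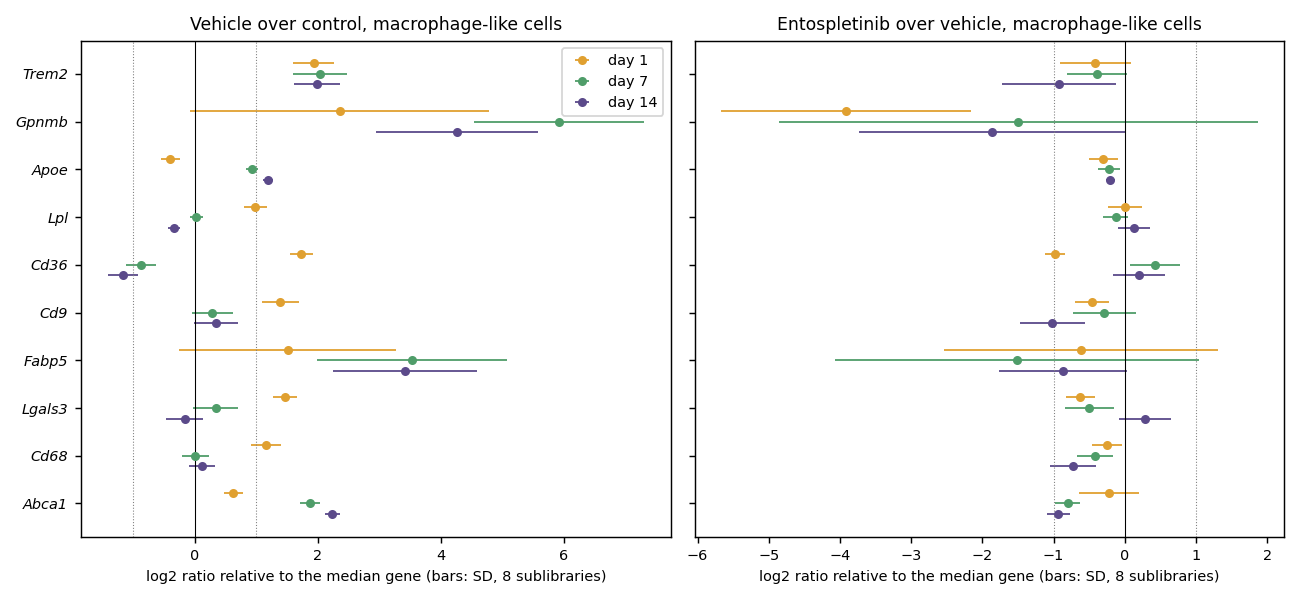
Log2 ratio relative to the median gene in macrophage-like cells for vehicle over control (left) and entospletinib over vehicle (right), with a point per day and bars for the SD over 8 sublibraries; dotted lines mark 2-fold. *Abca1* moves further above the control from day 1 (0.63) to day 14 (2.23), and the wide bars belong to *Gpnmb* and *Fabp5*.

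The 3 pairs of pools at days 1, 7 and 14 allowed a test of treatment with day as a covariate, with edgeR's quasi-likelihood test and Benjamini-Hochberg adjustment over 13563 genes. The spread it uses is how much the effect of treatment differs between days, which cannot be told apart from differences between pools of mice. For each gene this spread is also drawn towards that of all genes, so a p-value does not rest on the gene's own spread alone. In macrophage-like cells 3 of the 10 genes were lower with entospletinib. They were *Gpnmb* (log2 change -1.81, SE 0.26, adjusted p = 0.0046), *Abca1* (-0.69, SE 0.15, adjusted p = 0.027) and *Cd9* (-0.61, SE 0.14, adjusted p = 0.046). Of all genes, 1.98% were called lower. Within cluster 10 alone, a choice made after the results were seen, edgeR called no member (0.14, adjusted p = 0.92 for *Gpnmb*; -0.40, 0.30 for *Abca1*; -0.21, 0.78 for *Cd9*), although *Abca1* had an unadjusted p of 0.014. Without cluster 10, *Gpnmb* was called lower (-2.75, edgeR adjusted p = 0.0070), in clusters where its level was at most 5.3 CPM, and *Abca1* (-0.51, 0.11) and *Cd9* (-0.30, 0.42) were not. Within cluster 10 the *Gpnmb* level of day 7 was 89.2 ± 133.1 CPM for vehicle and 137 ± 310 for entospletinib, and that of day 14 was 25.0 ± 14.1 and 22.8 ± 48.0 CPM, differences smaller than the SD. The other 7 were not called by edgeR, with adjusted p-values of 0.058 for *Cd68* (-0.49), 0.071 for *Fabp5* (-1.16), 0.081 for *Trem2* (-0.60), 0.33 for *Lgals3* (-0.32), 0.34 for *Apoe* (-0.28), 0.78 for *Cd36* (-0.16) and 0.92 for *Lpl* (-0.04).

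These calls were not firm. Without the day term no gene was called by edgeR, although 684 had an unadjusted p under 0.05, and DESeq2 with the day term called 345. Without day 14 the edgeR calls of *Abca1* (adjusted p = 0.14) and *Cd9* (0.24) were lost, and without day 7 that of *Abca1* (0.096). That of *Cd9* was also lost without called doublets (0.22) and with no limit on ribosomal protein counts (0.0505). Other members were gained. *Cd68*, *Fabp5* and *Trem2* were called lower without day 1 (edgeR adjusted p = 0.0066, 0.024 and 0.041) and without the filter on low counts (0.0095, 0.0034 and 0.0099). Over all genes, edgeR called 965 and 864 in these settings, against 345 in the main test. *Cd68* was called by edgeR without doublets (0.0497) and *Lgals3* without day 14 (0.046), with 230 and 215 genes called in all. With classes from each cell's own markers, *Cd68* was called (0.035) and the edgeR calls of *Gpnmb* (0.066) and *Cd9* (0.11) were lost. The log2 change of *Gpnmb* was -3.34 when the cell with the most counts of each member was left out of each pool, a choice made after the counts per cell were seen, and *Fabp5* was then called too (adjusted p = 0.038).

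**Figure D3:**
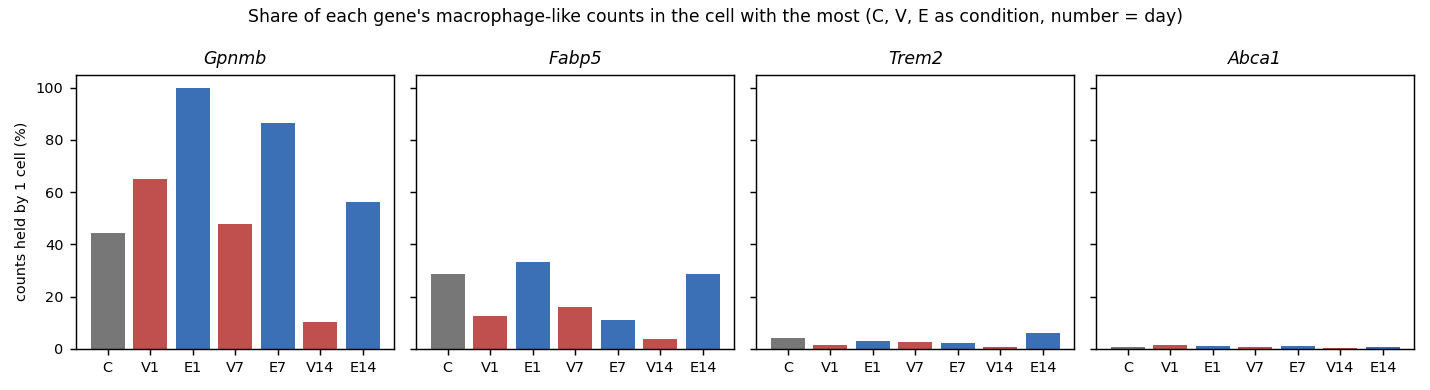
Percent of a gene's macrophage-like counts held by the 1 cell with the most, per condition (grey control, red vehicle, blue entospletinib), for *Gpnmb*, *Fabp5*, *Trem2* and *Abca1*. For *Gpnmb* the share is 86.3% in the entospletinib pool of day 7 and 10.3% in the vehicle pool of day 14, and for *Abca1* it is at most 1.39%.

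In monocyte-like cells, in which the entospletinib pools of days 7 and 14 had 379 and 463 cells, edgeR called no member, although 3 had an unadjusted p under 0.05 and DESeq2 called *Abca1*. Of 10393 genes, 0.423% were called lower by edgeR and 1463 had an unadjusted p under 0.05. *Abca1* had the largest change among members (log2 -1.66, SE 0.37, edgeR adjusted p = 0.081). Control kidneys had 78.2 ± 36.9 CPM. Vehicle pools had 373 ± 20, 1016 ± 113 and 369 ± 41 CPM, and entospletinib pools 175 ± 23, 162 ± 34 and 191 ± 78 CPM. The vehicle pools were above the control, and *Abca1* was called higher at day 1 (with *Lgals3*, beside 5.32% of the 3137 genes that reached 50 CPM in these cells, which again leave out *Trem2*, *Gpnmb* and *Fabp5*), day 7 (with *Gpnmb*, *Cd9* and *Lgals3*, beside 8.89%) and day 14 (beside 1.91%). With entospletinib at day 7, *Gpnmb* (-3.10 ± 1.02), *Abca1* (-3.06 ± 0.40), *Cd9* (-1.27 ± 0.64) and *Lpl* (-1.01 ± 0.69) were called lower than with vehicle, beside 7.33% of genes. The median gene stood at 0.41 in that comparison. Before it was subtracted, *Cd9* stood at -0.85 and *Lpl* at -0.59, both within 2-fold. *Gpnmb* had 7 counts with entospletinib and 150 with vehicle. No member was called at days 1 or 14. At day 14 *Gpnmb* (2.35 ± 3.15), *Lpl* (0.72 ± 1.30) and *Cd9* (0.17 ± 0.61) stood above the median gene and *Abca1* (-0.99 ± 0.58) below it. The median of the 10 genes was -0.43, -0.91 and 0.17 at days 1, 7 and 14. In the entospletinib pool of day 14, 1 cell held 81 of the 82 *Gpnmb* counts of monocyte-like cells. *Gpnmb* was called lower by edgeR when the cell with the most counts was left out of each pool (log2 -3.06, adjusted p = 0.018) and when called doublets were removed (-2.76, 0.020). *Abca1* was called by edgeR without day 1 (adjusted p = 0.0065). *Abca1* and *Cd68* were called without day 7 (5.5e-07 and 0.039) and without the filter on low counts (7.8e-13 and 0.023). Over all genes, edgeR called 161 without day 1, 422 without day 7 and 576 without the filter, against 61 in the main test.

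Across 16 cell classes over all conditions, *Apoe* (1778 ± 77 CPM), *Lpl* (532 ± 39) and *Cd36* (415 ± 25) were highest in macrophage-like cells. *Apoe* was above the next class, *Ccr7* dendritic cell-like, in 7 of 7 conditions, *Lpl* above proximal tubule-like cells in 6 of 7 and *Cd36* above cDC1-like cells in 2 of 7. *Trem2* was 17.7 ± 2.0 CPM in monocyte-like and 17.4 ± 0.8 CPM in macrophage-like cells when conditions were summed, but 655 of the 875 monocyte-like counts came from the vehicle pool of day 1. Monocyte-like cells were above macrophage-like cells in only 1 of 7 conditions. The third class, cDC2-like cells, had 3.2 ± 1.9 CPM. *Lgals3* (331 ± 7) and *Cd68* (100 ± 6) were highest in monocyte-like cells, *Cd68* in only 1 of 7 conditions above macrophage-like cells.

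*Cd9* was highest in neutrophil-like cells (1485 ± 38 CPM) and ranked 10 of the 16 classes in macrophage-like cells (90.4 ± 4.9 CPM). *Abca1* was 514 ± 33 CPM in neutrophil-like and 424 ± 11 CPM in macrophage-like cells with conditions summed, but neutrophil-like cells were the higher in only 3 of the 6 conditions in which both could be compared. Their vehicle pools had 418 ± 29, 1210 ± 119 and 662 ± 85 CPM at days 1, 7 and 14, so at day 14 they did not exceed the 706 ± 28 CPM of macrophage-like cells. *Gpnmb* was 14.3 ± 7.4 CPM in monocyte-like, 11.4 ± 7.3 in macrophage-like and 8.7 ± 5.9 in neutrophil-like cells, which differed by less than their SD. Monocyte-like cells were above macrophage-like cells in 6 of 7 conditions for this gene. In the vehicle pool of day 14 neutrophil-like cells had 74.6 ± 68.2 CPM of *Gpnmb*, and in the control T cell-like cells had 8.3 ± 8.7 CPM. *Fabp5* was highest in *Ccr7* dendritic cell-like cells (105 ± 45 CPM). In T cell-like cells, which should lack most of these genes, *Apoe* was 337 CPM, and 59.9 CPM once called doublets were removed, while in macrophage-like cells it was 1872 CPM without them. *Trem2* went from 1.7 to 0.4 CPM in T cell-like cells in the same way.

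**Figure D4:**
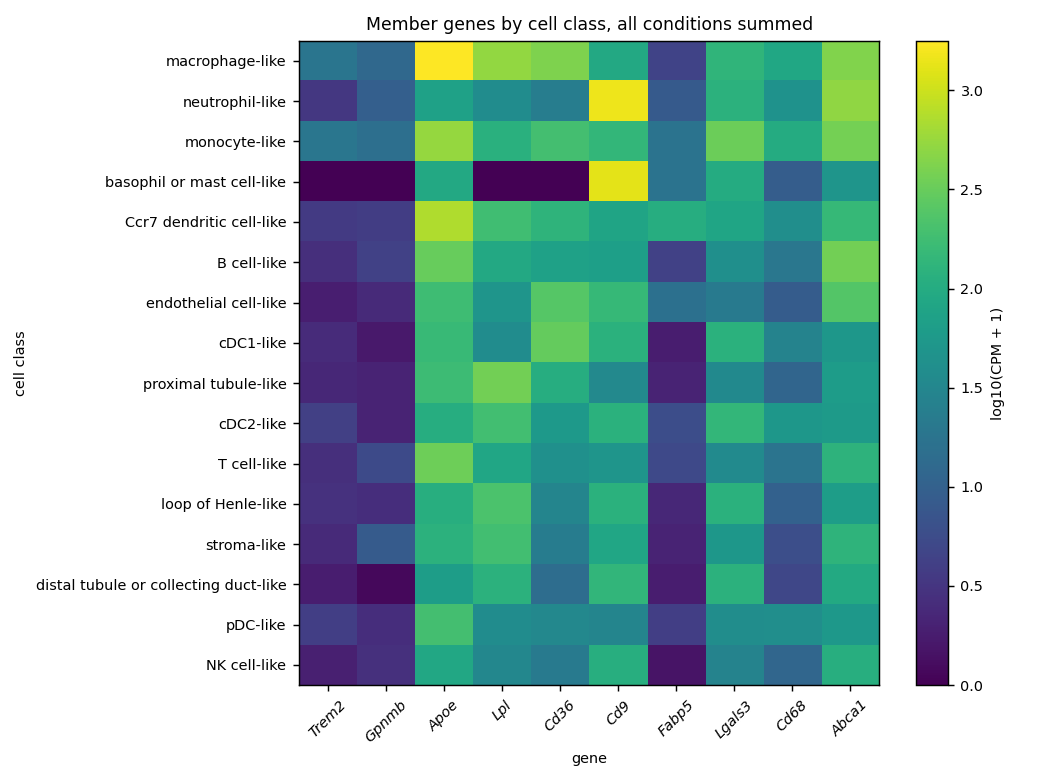
Level of each member gene in 16 cell classes, all conditions summed, as log10(CPM + 1) in colour. *Apoe* is brightest in macrophage-like cells (1778 CPM) and *Cd9* in neutrophil-like cells (1485 CPM).

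Macrophage-like clusters differed among themselves, by description since cells were clustered on other genes of the same cells. *Gpnmb* was 41.7 ± 33.5 CPM in cluster 10, led by *Fcrls*, *Cd83* and *Apoe*, and at most 5.3 ± 7.8 CPM in the other five clusters. *Abca1* was also highest there, at 765 CPM. *Cd36* was 1052 CPM and *Lpl* 964 CPM in cluster 8, led by *Ch25h*, *Ccl12* and *Plau*, and at most 282 and 444 CPM elsewhere. *Trem2* ranged only from 12.6 to 21.9 CPM. Cluster 10 had the highest share of called doublets among macrophage-like clusters, 19.1%.

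Other genes of the pathway were taken from 5 lists. Of 19 lysosome genes, edgeR called 3 lower in macrophage-like cells, beside 1.98% of all 13563 genes, and none higher. The 3 were *Ctsd* (log2 -0.95, adjusted p = 0.0015) and *Ctsb* (-0.56, 0.038), which are cathepsins, and the transcription factor gene *Tfec* (-0.90, 0.034). The list's median change was -0.35, against 0.01 for all genes. At day 14 the lowest of this list were *Ctsd* (-0.97 ± 0.29) and *Ctsb* (-0.62 ± 0.11). Of 14 lipid uptake and storage genes tested, 3 were lower, beside the same 1.98% of all genes, with a median change of -0.20. They were the scavenger receptor gene *Olr1* (-1.26, 0.039), *Dgat1* (-0.99, 0.019), an enzyme of triglyceride synthesis, and *Lrp1* (-0.58, 0.035), a lipoprotein receptor. At day 14 *Lrp1* (-0.73 ± 0.22) and *Plin2* (-0.55 ± 0.35) were lowest and *Scarb1* (0.31 ± 0.34) and *Pparg* (0.20 ± 0.25) highest.

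Of 12 tested partners of lipid-associated macrophages, 1 was lower, beside 1.98% of all genes, with a median change of -0.26. It was *Clec7a*, the beta-glucan receptor dectin-1 (-0.85, edgeR adjusted p = 0.0061). At day 14 *Clec7a* (-1.03 ± 0.29) and *Igf1* (-0.98 ± 0.23) were lowest and *Spp1* (0.29 ± 0.22) and *Mmp12* (-0.10 ± 0.57) highest. None of 11 TREM2 signalling genes and none of 10 sterol sensing and efflux genes was called by edgeR. Of these, 3 and 2 had an unadjusted p under 0.05, beside 2189 of all 13563 genes. In the first, *Pik3cg* (-0.80 ± 0.32) and *Ms4a7* (-0.35 ± 0.12) were lowest at day 14, and the adaptor *Tyrobp* (0.22 ± 0.16) and the phosphatase *Inpp5d* (0.17 ± 0.11) highest. In the second, *Pltp* (-0.51 ± 0.15) and *Srebf2* (-0.37 ± 0.26) were lowest and *Mylip* (0.14 ± 0.23) and *Abcg1* (-0.24 ± 0.20) highest. In monocyte-like cells edgeR called *Tfec* lower (log2 -1.34, adjusted p = 0.038), beside 0.423% of 10393 genes, and no other gene of these lists. The median changes there were -0.26 for lysosome, -0.10 for lipid uptake and storage and -0.63 for partner genes. They were -0.08 for TREM2 signalling and 0.28 for sterol genes, against 0.01 for all genes.

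Over 100 sums of a class and condition, which share libraries and depth, the genes whose log2(CPM + 1) followed each member most closely were *Csf1r* (Pearson r = 0.73) and *Lyz2* (0.73) for *Trem2*, *Ms4a7* (0.81) and *Siglec1* (0.79) for *Apoe*, and *Csf2ra* (0.82) and *Pirb* (0.82) for *Cd68*. For *Abca1* they were *Zswim6* (0.75) and *Sipa1l2* (0.67), for *Cd9* *Rabgef1* (0.78) and *Anxa11* (0.76), and for *Lgals3* *Diaph2* (0.70) and *Rbm47* (0.69). For *Cd36* they were *BC028528* and *Parvb* (both 0.77), for *Lpl* *Zfp704* and *Acp2* (both 0.67), for *Fabp5* *Gm18103* (0.81) and *Cflar* (0.72), and for *Gpnmb* *Lrp1* (0.53) and *Gm13986* (0.50).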

How the data were processed

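Kidney cells were barcoded with a Parse Biosciences Evercode kit. The authors aligned reads to mm10 with the Parse pipeline and deposited whole-number counts of transcripts per cell and gene, not normalized. The deposited cell table gave each cell's condition (other) and total count. The annotation release was not given in the sources used here. The 8 deposited samples are titled as mixes, and the cell table names 8 sublibraries, each with cells of all conditions, which were not matched to single samples.

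Cells with more than 300 genes, under 20000 counts, under 25% mitochondrial and under 1.5% ribosomal protein counts were clustered (4000 features, 40 components, 15 neighbours, Leiden resolution 1) and named from marker genes. Doublets were scored against simulated ones and kept in the main values. Counts were summed per class and condition as CPM. Intervals cover counting error only. Treatment was tested over 6 injured pools with edgeR 4.0.16 (TMM, filterByExpr, day and treatment), tested on simulated data, with DESeq2 1.42.0 as an alternative. The members and gene lists were chosen with earlier results of these data known. Named genes were the 10 members, those called in a list, the 2 highest and 2 lowest of each list at day 14 above 50 CPM, and the 2 genes nearest each member. The highest genes of the lysosome list at day 14 are not reported here. Alternatives are in the closing section.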

Additional observations from a re-analysis of the deposited data

Results flagged for a closer look

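*Fabp5* in macrophage-like cells had 1 sublibrary far above the other 7, at 5.89 CPM over all conditions against 3.47 CPM in all sublibraries together. Such a gap is found by chance in about 1 in 20 groups, and 10 genes were looked at.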

How the results depend on the processing

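In macrophage-like cells the number of genes called by edgeR over days, 345, was 864 without the filter on low counts, 0 without the day term (684 at an unadjusted p under 0.05, and 345 by DESeq2 with the day term), 215 to 965 when 1 day was left out, and 73 without and 70 within cluster 10, both added after seeing the data and each with fewer cells. In monocyte-like cells it was 61, and 230 with DESeq2, 576 without the filter, 0 without the day term (1083 at an unadjusted p under 0.05) and 0 to 422 when 1 day was left out. The cause was not tested. The members' median ratio of entospletinib over vehicle was -0.19 within cluster 12 at day 1, -0.086 and 0.12 within clusters 8 and 10 at day 7, and -0.39, -0.17, -0.32 and -0.0277 within clusters 0, 6, 8 and 10 at day 14. For vehicle over control at day 1 it was 1.56 with classes from each cell's own markers, 1.22, 1.00, 0.69, 0.57 and 1.20 within clusters 0, 6, 8, 10 and 12, and 1.22 to 1.47 without 1 sublibrary. At day 7 it was 0.80 with marker classes and 0.37, 0.21, 0.77 and 0.25 within clusters 0, 8, 10 and 12. At day 14 it was 0.66 without doublets and 0.61, 0.45, 0.35 and 0.35 within clusters 0, 6, 8 and 12. The main values of this median for vehicle over control, over all 10 members, were 1.43, 0.64 and 0.77 at days 1, 7 and 14. Over the 7 members that reached 50 CPM, a choice added after seeing the data, the median was -0.20 for entospletinib over vehicle at day 14 and 1.16, 0.28 and 0.11 for vehicle over control at days 1, 7 and 14. Signs turned for *Cd9* over control at day 1 within cluster 0 (-0.030). In the edgeR changes they turned within cluster 10 for *Gpnmb* (0.14, its call lost), *Cd36* (0.29) and *Lgals3* (0.39). Where no call was lost by it, they turned for *Cd36* without day 1 (-0.47 to 0.27 when 1 day was left out) and *Lpl* with marker classes (0.000469) in macrophage-like cells, and in monocyte-like cells for *Gpnmb* without the day term (0.26), without day 1 (0.078) and without day 7 (0.087, the highest when 1 day was left out, and -2.82 the lowest), *Lpl* without day 7 (-0.55 to 0.24) and *Cd36* without day 14 (-0.29 to 0.39). With marker classes *Gpnmb* (adjusted p = 0.066) and *Cd9* (0.11) were not called by edgeR in macrophage-like cells. Without clusters 6 and 23, added after the depths were seen, *Gpnmb*, *Abca1* and *Cd9* were still called. *Trem2*, *Gpnmb* and *Fabp5* are limited by depth. The labels give no replicate numbers shared between groups, so the day was the only pairing, and it is part of the edgeR test.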
